A study of Rattus norvegicus with 6 samples.

Results

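This report follows B cell receptor, B cell surface and plasma cell genes in rat pancreas. They were chosen by name, as 8 genes: Cd79a, Cd79b, Ms4a1, Fcer2, Cr2, Tnfrsf17, Jchain and Cd27. Probes were taken where their RefSeq accession maps to one of these symbols. Such a probe was found for 5 of the 8 genes, with 6 probes among 24684 non-control probes of the array. Cd79a, Ms4a1 and Jchain matched no probe and are not analysed here. The study measured pancreas RNA on 1-colour Agilent arrays in 2 groups of male rats of 6 weeks, with 3 deposited scans each. Control pancreas is labelled only as control, and the labels do not say whether those animals were operated on. In the other group, acute pancreatitis (AP) was induced by running 4% sodium taurocholate, a bile salt, backwards into the pancreatic duct at 1 mL/kg, and the animals were killed after 9 h.

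Mature B lymphocytes carry an antigen receptor made of a surface immunoglobulin and the signalling chains CD79A and CD79B, which recruit kinases of the SRC and SYK families once antigen binds. The coreceptor CR2 (CD21) binds complement fragments on antigen and lowers the threshold for that signal, and FCER2 (CD23) is the low-affinity receptor for IgE on B cells. Activated B cells can become plasma cells, which secrete antibody and depend on TNFRSF17 (BCMA), a receptor for the cytokines APRIL and BAFF; CD27, the receptor for CD70, marks memory B cells and plasma cells and is also carried by T cells. The pancreas itself holds few lymphocytes, but lymph nodes and fat lie against the gland.

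In each group, scan 3 repeated the array of scan 2. Header slots matched, and residuals of 1174 replicate spots around their probe means correlated at r = 0.992 (control) and 0.993 (AP), against 0.232 to 0.743 for the other 13 pairs of scans. Each pair was averaged, so every test compared 2 arrays with 2, and their number limits the precision. Nothing says that the 2 arrays of a group came from separate animals, so p-values measure only the spread between these arrays. Controls were in slots 1 and 2 and AP in slots 3 and 4, so slot and group cannot be told apart. The 75th percentile of the signal was 140 to 147 on control scans and 70.1 to 77.7 on AP scans. Values below are log2 signals relative to that percentile; over the 8722 genes tested, the median difference was -0.03 with this scaling and -0.99 with none. Of these genes, 2102 were higher in AP (24.1%) and 2782 lower (31.9%) at an adjusted p below 0.05 (limma, Benjamini-Hochberg over 13220 probes). Of the genes called, 43.0% were higher, against 7.8% without scaling and 28.5% after normexp background correction with the same percentile shift. Direction follows the deposited labels; whether these are right was not tested, and an exchange would turn every direction given here. On the arrays labelled AP, some genes known to rise in acute inflammation were lower. The cytokine gene Il6 was at least 29.1-fold lower and the neutrophil calprotectin gene S100a8 at least 90.7-fold. Both were above background on no AP scan and passed the filter on dim probes only through the control arrays. Among other cytokine and chemokine genes, Il10 (log2 difference 1.88) and Ccl20 (1.59) were higher and Cxcl12 (-1.61) was lower.

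The 4 B and plasma cell genes with a test were all called higher on the arrays labelled AP, beside 24.1% of all genes tested. The receptor chain Cd79b and the plasma cell receptor Tnfrsf17 went from not well above background on every control scan to clear signal on every AP scan. The filter on dim probes kept both only through the AP arrays, so it sets their calls. Cd27 was 14.6-fold and Fcer2 9.53-fold higher. Cr2, the fifth gene, lay near background in both groups and had no test. In bulk tissue, more B cells and more RNA of these genes per cell cannot be told apart.

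**Figure D1:**
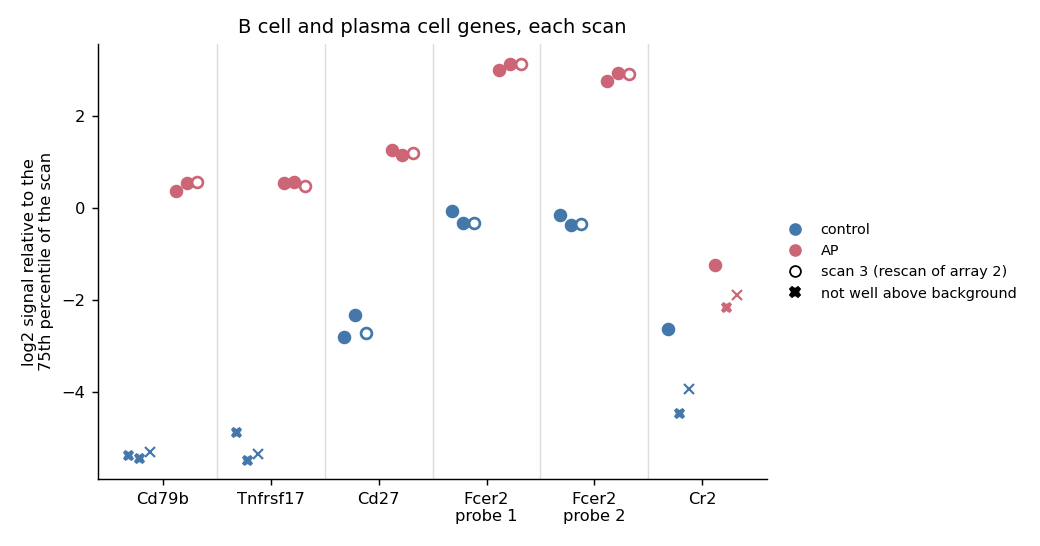
Log2 signal of each of the 6 probes relative to the 75th percentile of its scan, for 3 control scans (blue) and 3 AP scans (red); open circles and thin crosses are scan 3, a rescan of array 2, and crosses mark spots not well above background. AP scans lie above control scans for every probe, from -5.43 to -5.30 against 0.37 to 0.57 for Cd79b, while for Cr2 only 1 scan of each group was above background.

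The promoters of 2 of the genes that rose are shown because these genes moved together and differ in the cells that carry them, Tnfrsf17 on plasma cells and Cd27 on T cells too. RefSeq sequence of the current rat assembly was at hand for 5 of the 8 genes and for 2 of the 4 tested ones. Each stretch is read 5′ to 3′ on the strand of the gene and stops where the annotated gene begins. For Tnfrsf17 that point lies 85 bases before the start site used for the window, and those 85 bases were not searched. For Cd27 the gap is 0. Capitals mark E-boxes (CANNTG), the sites that TCF3 and related factors can bind.
Tnfrsf17, GRCr8 chr10:4813858-4814022, minus strand, 165 bases: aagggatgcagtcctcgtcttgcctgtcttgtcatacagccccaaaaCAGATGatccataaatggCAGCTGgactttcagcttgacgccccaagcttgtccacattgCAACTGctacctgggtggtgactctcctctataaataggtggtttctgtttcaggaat
Cd27, GRCr8 chr4:159721824-159722073, minus strand, 250 bases: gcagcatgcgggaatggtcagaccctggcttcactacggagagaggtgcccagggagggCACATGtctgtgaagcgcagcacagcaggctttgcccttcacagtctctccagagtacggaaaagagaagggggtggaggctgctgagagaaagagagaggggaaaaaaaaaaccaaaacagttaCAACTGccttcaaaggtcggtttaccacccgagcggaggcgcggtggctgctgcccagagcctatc
The Tnfrsf17 stretch held 3 E-boxes and the Cd27 stretch 2, and CAACTG occurs in both. An E-box is common: on both strands, 51.5% of 33469 promoters hold one in the same window as Tnfrsf17 and 65.5% in that of Cd27. The octamer ATGCAAAT, known from immunoglobulin promoters, the PU-box core GAGGAA, the EBF pattern CCCNNGGG and the kappaB pattern (GGGA, any 4 bases, CC) were not in either stretch. Their shares over all promoters were 1.04%, 16.0%, 6.93% and 10.6% in the shorter window and 1.56%, 23.3%, 10.8% and 16.4% in the longer one. These are matches of letters, not measured binding.

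Cd79b encodes the beta signalling chain of the B cell receptor. Its probe (NM_133533.2) read -5.38, -5.43 and -5.30 on control scans 1, 2 and 3 and 0.37, 0.53 and 0.57 on AP scans 1, 2 and 3. The groups lie far apart, and the control values are at the bottom of the scale. Before scaling, the spot gave 3.25 to 3.70 intensity units on control scans and 100.4 to 109 on AP scans, and its median pixel signal was 1.97 to 2.46 times the local background in controls and 6.5 to 6.90 times in AP. Cd79b was at least 18.3-fold higher in AP when the control is set to the dimmest signal still called well above background there. The measured values were -5.37 ± 0.01 in controls and 0.46 ± 0.13 in AP (SD, n = 2). Their log2 difference was 5.83 ± 0.11 (SE, limma adjusted p = 0.000602), and it rests on control values that have no certain level. On control scans 1, 2 and 3 the signal was 3.55, 3.25 and 3.70 and its error estimate 3.53, 3.24 and 3.69. The control SD and the p-value rest on these values too. The bound, like every fold bound given here, has no test of its own and holds for the reported setting only. Under normexp with the percentile shift the log2 difference of Cd79b was 1.56.

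Tnfrsf17 encodes BCMA, which keeps long-lived plasma cells alive. Its probe (NM_001105761.1) read -4.87, -5.47 and -5.35 on control scans and 0.54, 0.57 and 0.47 on AP scans. All 3 control scans were not well above background, while the AP values ran from 0.47 to 0.57. The spot gave 3.17 to 5.04 intensity units in controls and 102 to 113 in AP. Tnfrsf17 was at least 19.2-fold higher (control -5.14 ± 0.38, AP 0.53 ± 0.01, SD, n = 2; measured log2 difference 5.67 ± 0.22, SE, limma adjusted p = 0.000834). Cd79b and Tnfrsf17 passed the filter on dim probes, which asked for 3 of 6 scans above background, only through the AP arrays. Of the 65 genes that passed it in this way, 65 were called higher (100%), so the filter sets the call of these 2 genes.

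Cd27 encodes a receptor of the TNF family whose ligand is CD70. Its probe (NM_001024335.1) was above background on all 6 scans and read -2.81, -2.32 and -2.71 on control scans and 1.26, 1.15 and 1.18 on AP scans. The control values are spread more widely than the AP values. The median pixel signal of the spot was 2.38 to 3.39 times the local background in controls and 6.82 to 9.10 times in AP. The control spots of Cd27 were thus as dim against their background as the Cr2 spots (2.27 to 3.42), although they were marked well above background. The rescan of control array 2 moved Cd27 by -0.40, more than the difference of 0.29 between the control arrays, and the rescan of AP array 2 moved it by 0.04. Cd27 was 14.6-fold higher (control -2.66 ± 0.21, AP 1.21 ± 0.07, SD, n = 2; log2 fold change 3.87 ± 0.14, SE, limma adjusted p = 0.000781). By log2 fold change it stood at place 29 from the top among 7633 genes above background on at least 1 scan of each group, a place that holds for the reported setting only.

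Fcer2 encodes CD23, which is found on mature B cells and on follicular dendritic cells. It had 2 probes, for the transcripts NM_133550.2 and NM_001033924.1. The first read -0.07, -0.33 and -0.33 on control scans and 2.99, 3.12 and 3.13 on AP scans. The second read -0.14, -0.36 and -0.36 on control scans and 2.76, 2.93 and 2.91 on AP scans. Both were well above background on every scan and showed the same shift, so Fcer2 does not rest on dim control spots. By the first, brighter probe Fcer2 was 9.53-fold higher (control -0.20 ± 0.18, AP 3.06 ± 0.10, SD, n = 2; log2 fold change 3.25 ± 0.14, SE, limma adjusted p = 0.000964), and by the second 8.55-fold (3.10 ± 0.13, adjusted p = 0.000964). It stood at place 58 of the 7633 genes under the same setting.

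Cr2 encodes CD21, the complement receptor of B cells and follicular dendritic cells. Its probe (NM_001105989.1) read -2.63, -4.46 and -3.92 on control scans and -1.25, -2.15 and -1.90 on AP scans. Only control scan 1 and AP scan 1 were well above background, so Cr2 was below the filter and was not tested with the other genes. Its spot gave 6.39 to 23.8 intensity units in controls and 15.8 to 32.8 in AP. The ranges of raw signal overlap, although the scaled values of the arrays do not. With no filter on dim probes the log2 difference was 1.78 ± 0.69 (SE, n = 2 per group, limma adjusted p = 0.139), so a change in Cr2 was not detectable at this signal.

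**Figure D2:**
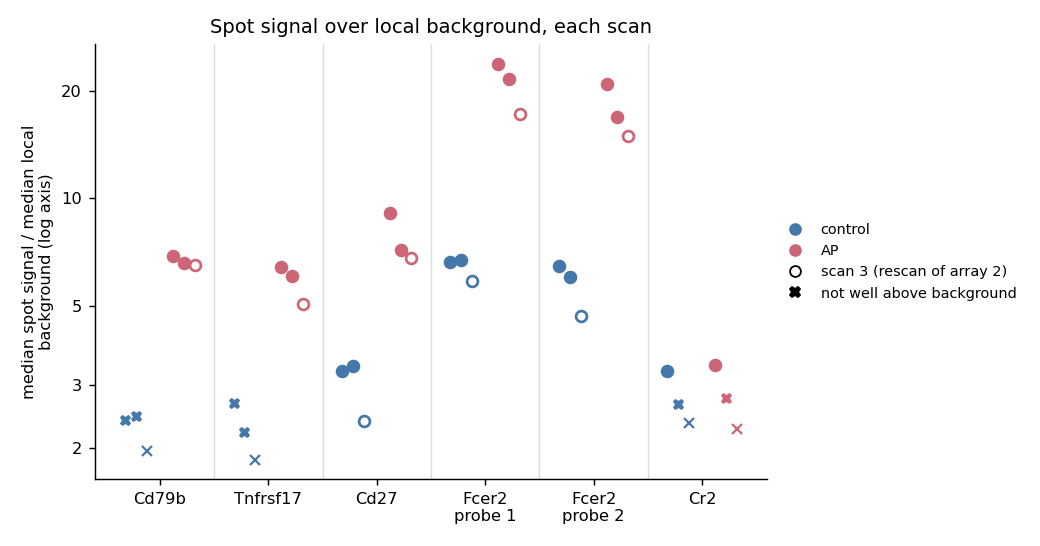
Median pixel signal of each spot divided by the median local background, on a log axis, for the same 6 probes and scans. The Fcer2 probes reach 14.9 to 23.8 on AP scans, Cd79b, Tnfrsf17 and Cd27 reach 5.07 to 9.10, and the Cr2 spots lie between 2.27 and 3.42 in both groups.

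Within scan session 1, which holds 2 scans of each group, the log2 differences were 5.86 for Cd79b, 5.72 for Tnfrsf17, 3.76 for Cd27 and 3.25 for Fcer2. In session 2, with 1 scan of each group and no test, they were 5.87, 5.82, 3.90 and 3.46. Normexp background correction with an added offset of 50, which pulls dim signals together, gave much smaller values with the percentile shift: 1.56 for Cd79b, 1.46 for Tnfrsf17, 1.57 for Cd27 and 2.00 for Fcer2. All 4 were still called higher, but for Cd79b and Tnfrsf17 the filter on dim probes sets the call. The limma adjusted p was 3.79e-05 for Cd27 and 1.41e-06 for Fcer2. Fcer2 then had the largest difference instead of the smallest. The order of the genes by size of change, and the places of Cd27 and Fcer2 given above, thus hold for the reported setting and turn under this one.

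**Figure D3:**
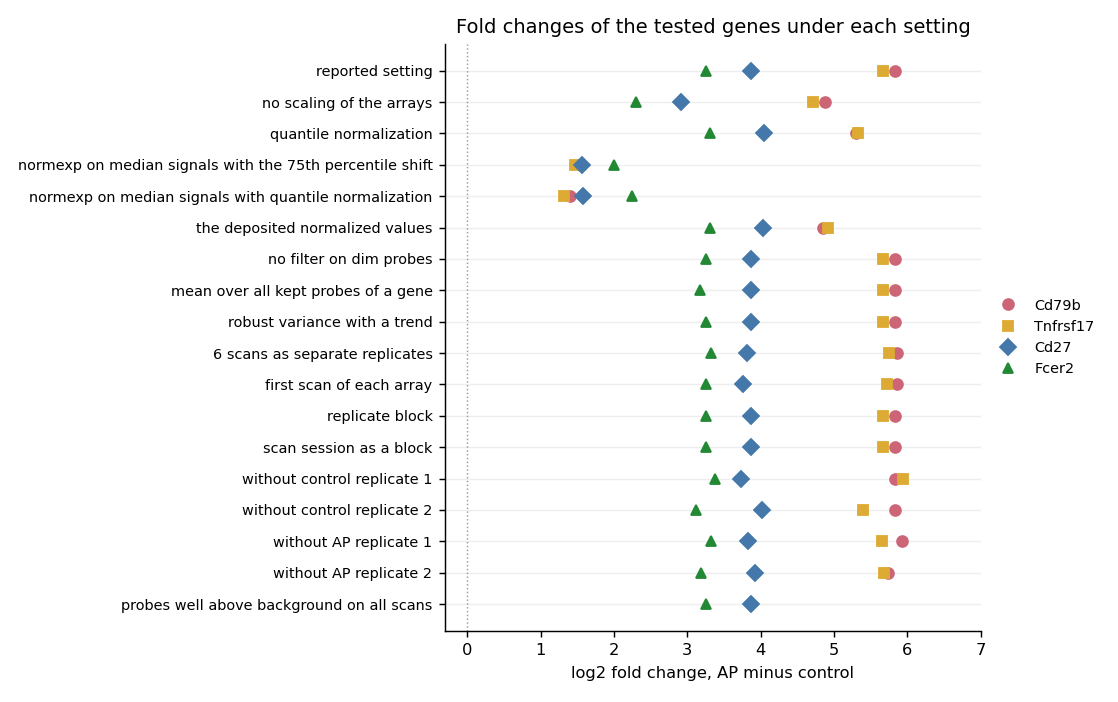
Log2 fold change (AP minus control) of the 4 tested genes under the reported setting and 17 other settings; the bottom row lacks Cd79b and Tnfrsf17, which were not above background on all scans. Every point lies above 0, from 1.32 for Tnfrsf17 under normexp with quantile normalization to 5.94 for Tnfrsf17 without control replicate 1.

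The wider B cell surface and receptor signalling genes moved the same way. Of 28 tested, 25 were higher in AP, beside 24.1% of all genes, 1 was lower (Lyn) and 2 were not past the threshold (Cd81 0.41 and Cr1l -0.10); 8 further genes on the array had no test. Their median log2 fold change was 2.18, against -0.03 over all genes. Of the 28, 2 passed the filter only through the AP arrays, among them Ccr6, a chemokine receptor (at least 19.5-fold higher).

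Among receptors and coreceptors, Cd22, an inhibitory lectin of B cells, rose from -2.75 ± 0.09 to 1.39 ± 0.02 (SD, n = 2; log2 fold change 4.15 ± 0.10, SE, limma adjusted p = 0.000625). The tetraspanin Cd37 rose by 3.77 and Fcmr, the receptor for IgM, by 3.29. Cd72, another inhibitory receptor, was 2.37 higher and Cd74, the invariant chain of class II molecules, 3.41. Cd40, the receptor for T cell help, was 1.75 higher (adjusted p = 0.0190) but lost its call without AP replicate 1 (0.0793) or AP replicate 2 (0.0802), and without scaling (0.80, adjusted p = 0.115). Under normexp with the percentile shift Cd40 (0.62, adjusted p = 0.0924) and Blk (0.58, adjusted p = 0.109) were not called. Cd40 was above background on 1 control scan only. Downstream of the receptor, the adaptor Blnk rose by 3.45, the kinase Prkcb by 3.61, the phospholipase Plcg2 by 2.22, the kinase Blk by 1.65 and the kinase Syk by 1.43. Lyn, the SRC family kinase that starts receptor signalling, was 0.76 lower (adjusted p = 0.0356); the call was lost without control replicate 1 (0.0620), AP replicate 1 (0.119) or AP replicate 2 (0.122). Btk was well above background on 2 AP scans and no control scan and had no test. Ptprc, the pan-leukocyte phosphatase CD45, was 2.62 higher and Cxcr4 2.15, and neither is limited to B cells.

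Transcription factors of the B lineage split. Of 9 tested, 4 were higher (beside 24.1% of all genes), 2 were lower (beside 31.9%) and 3 were not past the threshold, with a median log2 fold change of -0.13. Spib, an ETS factor of B cells and plasmacytoid dendritic cells, rose from -3.07 ± 0.23 to 2.00 ± 0.08 (SD, n = 2). Its log2 fold change was 5.07 ± 0.16 (SE, limma adjusted p = 0.000688), but it was above background on 1 control scan only. Pou2af1, the octamer coactivator OBF-1, rose from -0.56 ± 0.07 to 3.89 ± 0.00 (4.45 ± 0.10, adjusted p = 0.000602). Tcf3 was 1.75 higher and Spi1, the myeloid and B cell factor PU.1, 1.27. Pax5, which fixes B cell identity, read -1.63 ± 0.33 in controls and -1.86 ± 0.24 in AP (-0.24 ± 0.23, adjusted p = 0.437), and was above background on 3 control scans and 1 AP scan. Ebf1, which fat and stromal cells also express, was 1.19 lower and Bcl6, the germinal centre repressor, 1.33 lower. The call of Ebf1 was lost without control replicate 1 (adjusted p = 0.0531) or control replicate 2 (0.0529), and under normexp with the percentile shift (-0.52, adjusted p = 0.149). Foxp1 and Ung stood at -0.14 and -0.13. Without scaling, where the median of all genes was -0.99, Pax5 (-1.19, adjusted p = 0.0152), Foxp1 (-1.10) and Ung (-1.09) were called lower and Spi1 lost its call (0.31, adjusted p = 0.0698).

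Plasma cell regulators and secretory helpers split. Of 14 tested, 4 were higher (28.6%, near the 24.1% of all genes), 3 were lower and 7 were not past the threshold. Mzb1, a chaperone of antibody assembly in B and plasma cells, rose from -1.10 ± 0.06 to 3.74 ± 0.02 (SD, n = 2; 4.84 ± 0.10, SE, limma adjusted p = 0.000602). Irf4, a factor that plasma cells require and activated T cells use too, was at least 13.3-fold higher; it passed the filter only through the AP arrays, so the filter sets its call. Derl3 was 0.96 and Ssr4 0.50 higher, but without scaling Derl3 stood at -0.0003 and Ssr4 at -0.46, and Ssr4 lost its call without any 1 of the 4 arrays (adjusted p 0.0649 to 0.0791). Prdm1, which encodes BLIMP-1, the switch to the plasma cell state, was 0.89 ± 0.33 higher (adjusted p = 0.0930); it passed the threshold without AP replicate 1 (1.31, adjusted p = 0.0226). Sdc1, the plasma cell surface proteoglycan CD138 that epithelia also carry, was above background on 3 control scans and no AP scan and was at least 1.08-fold lower; it passed the filter only through the control arrays, and under normexp with the percentile shift it stood at 0.19 (adjusted p = 0.624). Xbp1, which drives secretion in plasma cells and in acinar cells alike, fell by 1.30 (adjusted p = 0.00516). Fkbp11, a foldase of secretory cells, was 0.83 lower and lost its call without control replicate 1 (0.0609), control replicate 2 (0.0953) or AP replicate 2 (0.0637). Under normexp with the percentile shift Derl3 (0.52), Ssr4 (0.11) and Fkbp11 (-0.57) were not called. Prdm1 was dim, above background on 1 control scan and 2 AP scans.

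Of the ligands and niche signals, 6 of 11 tested genes were higher (beside 24.1% of all genes), 4 were lower (beside 31.9%) and 1 was not past the threshold (Il7 0.48, adjusted p = 0.0566). Cxcl13, the chemokine that draws B cells into follicles, rose from 1.42 ± 0.03 to 3.62 ± 0.05 (SD, n = 2; 2.20 ± 0.10, SE, limma adjusted p = 0.000964). Ccl21 and Ccl19, which draw lymphocytes through CCR7, were 6.23 and 4.19 higher, Ltb, which organises lymphoid tissue, 2.24, Il10 1.88 and Ccl20, the ligand of CCR6, 1.59. Ccl20 lost its call without control replicate 2 (adjusted p = 0.0573), without scaling (0.64, adjusted p = 0.0655) and under normexp with the percentile shift (0.61, adjusted p = 0.0956). Lower were Il6, which passed the filter only through the control arrays, Cxcl12 (-1.61), which holds plasma cells in their niche, and the complement genes C3 (-1.70) and C4a (-2.45, with a value on 1 control array only). The ligands of the receptors above were not measured well: Cd70 was above background on no scan, Tnfsf13 (APRIL) on 2 control scans and no AP scan, and Tnfsf13b (BAFF) matched no probe. No immunoglobulin gene of the list matched a probe.

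**Figure D4:**
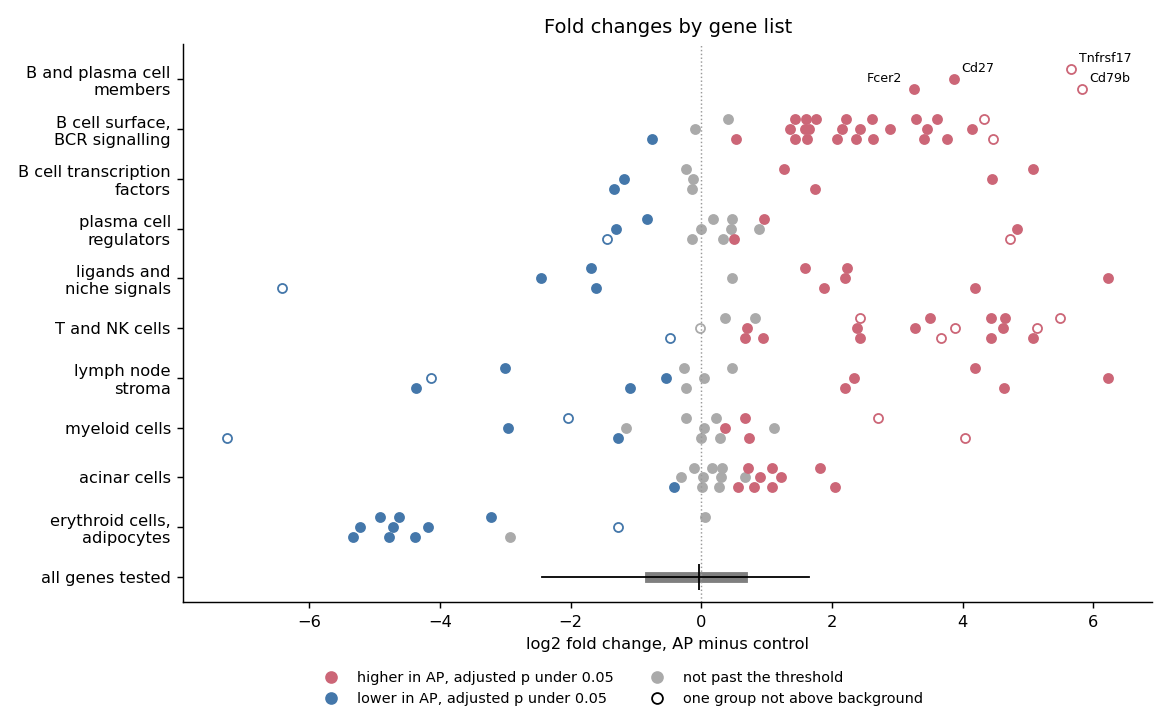
Log2 fold change (AP minus control) of every tested gene of each list, 1 point per gene, coloured by call; open points have a group with no scan above background, and the bottom line spans the 5th to 95th percentile of all 8722 genes with the middle 50% as a bar. The 4 B and plasma cell genes lie at 3.25 to 5.83, and 25 of 28 B cell surface and signalling genes are red.

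Most T cell markers moved with the B cell genes, NK cell markers moved less, and lymph node stroma markers split. Among 21 tested genes of T and NK cells, 17 rose (beside 24.1% of all genes), 1 fell (Cd5 -0.48, a dim probe that lost its call when any 1 array was left out, adjusted p 0.0671 to 0.171) and 3 were not past the threshold; 5 of the 21 passed the filter only through the AP arrays and 2 (Cd5 and Ncr1) only through the control arrays. Their median was 3.28, or 2.42 with dim genes at their bound, and their summed linear signal went from 27.0 to 28.0 on control arrays to 97.0 to 106 on AP arrays. Cd3e rose by 4.63, Lat by 4.65 and Lck by 5.08, the last above background on 1 control scan only. Cd4 was above background on no scan. Of the NK and cytotoxic cell genes, Klrk1 (0.69) and Nkg7 (0.67) were called higher. Prf1 (0.36) and Ncr1 (-0.03) were not past the threshold, and Klrd1, Gzma and Gzmb had no test. Of the lymph node stroma and vessel markers, 5 of 14 were higher (beside 24.1% of all genes: Ccl21, Glycam1 4.64, Ccl19, Mfge8 2.34 and Cxcl13), 5 were lower (beside 31.9%: Pdpn -4.37, Mcam at least 13.5-fold, Ltbr -3.01, Lyve1 -1.09 and Bst1 -0.54) and 4 were not past it, among them Madcam1 (-0.24). The median of this list was -0.10. Bst1 lost its call without control replicate 1 (adjusted p = 0.101), control replicate 2 (0.0950) or AP replicate 1 (0.0802), and under normexp with the percentile shift Bst1 (-0.32, adjusted p = 0.360) and Lyve1 (-0.61, adjusted p = 0.0828) were not called. The summed signal of the list was 37.9 to 42.4 on control arrays and 159 to 171 on AP arrays, a sum to which the brightest genes, such as Ccl21 (6.33 in AP) and Ccl19 (4.65 in AP, both as log2 levels), add most. The part of T cells or lymphoid stroma in the B cell result was not tested.

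Markers of acinar cells, which make up most of the gland, were present in both groups: 9 of 19 were higher (beside 24.1% of all genes), 1 was lower (beside 31.9%) and 9 were not past the threshold, with sums of 110.7 to 111 on control arrays and 128 to 139 on AP arrays. Amy2a3, an amylase, was 1.09 higher, and 0.13 without scaling (limma adjusted p = 0.383). Without scaling Cpb1 (0.27, adjusted p = 0.129) and Prss2 (0.86, adjusted p = 0.182) lost their calls too. The median of the list was 0.56, while the median of all genes was -0.03 with scaling and -0.99 without. The direction of the acinar list as a whole therefore depends on the scaling. The acinar factors Ptf1a, Rbpjl and Nr5a2 were above background on no scan. As log2 levels, the brightest acinar marker tested was at 4.03 in controls (Cela3b) and 4.19 in AP (Ctrc). The brightest erythroid or adipocyte marker, Hbb-b1, was at 9.60 in controls and 4.82 in AP. Ccl21, the brightest lymph node stroma marker in AP, was at 6.33 there. What share of the samples was acinar tissue was not tested. Of the myeloid and dendritic cell markers, 5 of 16 were higher and 4 lower, beside 24.1% and 31.9% of all genes, with sums of 92.7 to 98.7 on control and 76.3 to 78.2 on AP arrays. Of these 16, 2 passed the filter only through the AP arrays (Marco and Clec9a) and 2 only through the control arrays (S100a8 and Itgam). Of the erythroid and adipocyte markers, 10 of 12 were lower (beside 31.9% of all genes) and 2 were not past the threshold (median -4.51), and their sums fell from 1776 and 1888 to 68.2 and 68.8. The part of these shifts in the B cell result was not tested.

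The genes nearest to the mean profile of the 4 tested B and plasma cell genes were found over 4 arrays and 8671 genes, by the root mean square difference of centred log2 values. They were Glycam1 (0.03), a mucin of high endothelial venules that binds L-selectin, Ptprcap (0.05), the CD45-associated protein of lymphocytes, Cd3e (0.06), Ell3 (0.06), an elongation factor above background on no control scan, Serpinb6b (0.09) and Mzb1 (0.10). Their log2 fold changes ran from 4.63 to 4.84. The members lay farther from their own mean, at 0.42 for Cd27, 0.53 for Tnfrsf17, 0.59 for Cd79b and 0.70 for Fcer2. This mean uses control values of Cd79b and Tnfrsf17 that were not well above background. With the profile of Cd27 and Fcer2 alone, a choice made after seeing the data, the nearest 6 included B4galnt1 (0.04), H2ac4 (0.05), Cd3d (0.07), Blnk (0.07) and Prkcb (0.08), and 0 of the 6 were among the first 6. The nearest genes therefore depend on which members enter the mean. Leaving out Cd79b and Tnfrsf17 dropped their AP values as well, so the part of the dim control values was not tested.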

How the data were processed

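Per the labels, RNA was extracted from whole pancreas, ribosomal RNA was removed, and random-primed cRNA was labelled with Cy3. Agilent Feature Extraction 11.0.1.1 (submitters' processing notes and file headers) quantified a design annotated on rn4. The scanner tables deposited by the authors hold a processed intensity per spot, with no scaling between arrays. The authors also deposited a normalized table in log2, made by a method not given in these sources. Its scale and direction match the scanner values (r = 0.987 to 0.999 per scan), all column medians are 4.27, and it served as an alternative.

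Spots with an outlier mark and control probes were left out, log2 intensities of a probe's spots were averaged, the 75th percentile of the scan was subtracted, and rescans of an array were averaged. A probe was kept if 3 or more of 6 scans were well above background (13225; 5 had no fit). limma 3.58.1 (R 4.3.3, lmFit and eBayes) compared AP with control, two-sided, with Benjamini-Hochberg adjustment over 13220 probes, and was tested on simulated data. Each gene is represented by its brightest kept probe. A gene above background on no scan of a group has a fold bound, which holds for the reported setting only. Symbols came from RefSeq by unversioned accession (14256 coding probes). Named were the members, 20 fixed genes, up to 4 called genes per list and 6 nearest genes; further list members were singled out after their values were seen. Some genes are not reported here. Members, lists and tests were chosen with earlier results of these data known. Tables and figures used Python 3.11.15, pandas 2.3.3, numpy 2.4.6 and matplotlib 3.10.9.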

Additional observations from a re-analysis of the deposited data

How the results depend on the processing

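Cd79b, Tnfrsf17, Cd27 and Fcer2 were higher and past the threshold under all 17 alternatives that could give them a value (16 for Cd79b and Tnfrsf17), with adjusted p at most 0.0169 (limma); for Cd79b and Tnfrsf17 the filter on dim probes sets the call, so this is no sign of stability. Normexp with quantile normalization gave 1.396, 1.32, 1.58 and 2.25; without scaling they were 4.87, 4.71, 2.92 and 2.30. The count of members called higher was 4, and 2 with probes above background on all scans, where only 2 were tested. The count of B cell transcription factors rose from 4 to 8 with no filter on dim probes, where 17 were tested. The count of plasma cell genes went from 4 to 2 without scaling and under normexp with the percentile shift, to 7 under normexp with quantile normalization and to 8 with 6 scans as replicates. With 1 array left out it was 3 to 5, that of B cell surface genes 22 to 23 (25 in all arrays), and those of members and transcription factors stayed at 4. These counts stand beside those over all genes, which also differ between settings. In the reported setting 2102 of 8722 genes were higher. Without scaling 461 genes were higher and 5448 lower. Under normexp 561 were higher with the percentile shift and 1950 with quantile normalization. With 6 scans as replicates 2957 were higher, and with the replicate number as a block 1535. With no filter on dim probes 3292 of 13859 genes were higher. Under normexp with the percentile shift Lyn stood at 0.0697, Sdc1 at 0.19 and Cd5 at 0.38, opposite to the reported direction; the cause was not tested. Without scaling Derl3 stood at -0.0003, Ssr4 at -0.46, the B cell list's Ifitm1 at -0.42 (reported 0.54), the plasma cell list's Pdia4 at -0.50 (0.46, not past the threshold), and C1qa and Cela2a, reported at 0.00 and 0.01, both at -0.95. Leaving out the scaling lowers every gene with a value on all arrays by the same amount, so these flips of small differences follow from its construction. Normexp used median spot signals, chosen after seeing that the mean signal first planned was not among the columns used here; that version was not run. Replicate numbers are only names here: the deviations of arrays with the same number correlated at -0.21. With the replicate number as a block, 4 members, 24 B cell surface genes, 4 transcription factors and 3 plasma cell genes were called higher, the adjusted p of Cd79b was 0.0107, and Lyn, Ssr4, Fkbp11, Cd5, Bst1 and Ifitm1 were not called. Signal over background limits Cr2, Cd79b and Tnfrsf17, and also the control level of Cd27 (2.38 to 3.39 times the local background).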
